A study of Mus musculus with 8 samples.

Results

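The NR4A, EGR and NFAT transcription factors were examined in CCR8+ and CCR8- conventional CD4+ T (Tconv) cells from mouse tumors, as a readout of recent antigen receptor signaling. The 10 genes were chosen by symbol, namely *Nr4a1*, *Nr4a2*, *Nr4a3*, *Egr1*, *Egr2*, *Egr3*, *Nfatc1*, *Nfatc2*, *Nfatc3* and *Nfat5*, and all 10 were among the 11233 rows of the deposited table. The data are 8 bulk RNA-Seq libraries, 4 of CCR8+ and 4 of CCR8- cells. Both groups are CD4+ cells without EGFP, sorted from subcutaneous tumors of B16-F10, a transplantable melanoma line, in Foxp3EGFP-DTR mice of both sexes aged 8 to 14 weeks. In these mice a receptor for diphtheria toxin (DTx) and EGFP are both driven by the *Foxp3* gene, and DTx therefore kills regulatory T (Treg) cells. All 8 libraries come from mice given DTx, by the methods as 4 injections of 1 μg from day 7 to day 13 after implantation with harvest on day 16, so that there is no group with its Treg cells intact. By their labels, the groups differ only in the surface receptor used for the sort. Both carry the replicate numbers 1 to 4, and the study describes the 4 libraries of a group as biological replicates from a single day. Neither the labels nor the methods say whether a number stands for a mouse or whether mice were pooled, so p-values measure the spread between these libraries.

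NR4A proteins are orphan nuclear receptors whose genes belong to the immediate-early response: antigen receptor signals switch them on without new protein synthesis, and *Nr4a1* in particular is widely used as a reporter of recent receptor engagement. EGR proteins are zinc-finger factors of the same early response. EGR1 lies downstream of the MAP kinase cascade, and EGR2 and EGR3 are known for their part in T cell anergy. NFATc1, NFATc2 and NFATc3 wait in the cytoplasm until calcium activates the phosphatase calcineurin, which strips their phosphates and lets them enter the nucleus. NFAT activity is therefore set mainly by location rather than by transcript level, apart from *Nfatc1*, which has a promoter that NFAT itself induces. NFAT5 shares the DNA-binding fold but answers to osmotic stress and does not need calcineurin.

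Upstream sequences of members are shown because early-response genes are known to be induced through short elements there. RefSeq windows of 250 bases before a gene start (GRCm38.p6) matched 7 of the 10 members, with 13 windows and none for *Egr1*, *Egr3* and *Nfatc1*, and the search covered both strands. TGACG, the half-site of the cyclic AMP response element (CRE) bound by CREB and ATF factors, occurred 4 times before a RefSeq start of each of the 3 NR4A genes, while 0.137% of all 32851 windows held it 4 or more times. The limit of 4 was the count seen in these NR4A windows, and all windows were counted whatever their base composition. The full palindrome TGACGTCA, which would hold TGACG on both strands, was in 0 of the 13 windows and in 1.55% of all windows. The *Nr4a1* window precedes an internal start, since GENCODE has the gene begin further upstream. In the windows below, written 5′ to 3′ on the strand of the gene, capitals mark TGACG or its reverse complement CGTCA. The *Nr4a3* stretch is limited to the 98 bases before the untranslated region that GENCODE annotates, and holds 3 of its 4 copies.
Nr4a1 (chr15:101266596-101266845, + strand): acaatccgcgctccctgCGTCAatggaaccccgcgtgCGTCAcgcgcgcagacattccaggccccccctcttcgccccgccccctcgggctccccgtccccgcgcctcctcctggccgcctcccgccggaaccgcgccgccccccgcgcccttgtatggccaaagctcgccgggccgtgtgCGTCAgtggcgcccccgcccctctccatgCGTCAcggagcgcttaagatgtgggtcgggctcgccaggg
Nr4a2 (chr2:57124004-57124253, - strand): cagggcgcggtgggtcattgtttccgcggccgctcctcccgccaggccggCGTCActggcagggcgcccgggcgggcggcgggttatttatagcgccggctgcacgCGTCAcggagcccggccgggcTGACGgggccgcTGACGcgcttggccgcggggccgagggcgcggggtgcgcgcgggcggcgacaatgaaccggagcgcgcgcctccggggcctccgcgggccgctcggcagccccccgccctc
Nr4a3 (chr4:48045055-48045152, + strand): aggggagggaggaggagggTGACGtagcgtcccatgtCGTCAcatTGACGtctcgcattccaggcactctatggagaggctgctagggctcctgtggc

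*Egr2* had 5 RefSeq windows, 4 of which held a CArG box, the site of serum response factor, which 1.47% of all windows hold. Of these, 3 overlap for most of their length and share 1 box, so that the 4 are not separate finds. The window printed here also held 2 copies of TGACG, and capitals mark the CArG box and those copies.
Egr2 (chr10:67537619-67537868, + strand): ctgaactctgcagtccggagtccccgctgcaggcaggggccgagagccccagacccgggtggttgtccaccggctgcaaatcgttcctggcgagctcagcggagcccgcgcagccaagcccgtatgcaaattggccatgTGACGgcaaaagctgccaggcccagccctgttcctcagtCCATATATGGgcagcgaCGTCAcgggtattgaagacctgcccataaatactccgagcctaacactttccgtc

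GGAAA, the core of NFAT sites, is short and common: 55.6% of all windows held at least 1 copy and 6.39% held 3 or more. The first of the 2 *Nfatc2* windows held 3 copies, in capitals here on either strand (TTTCC is the reverse complement).
Nfatc2 (chr2:168601658-168601907, - strand): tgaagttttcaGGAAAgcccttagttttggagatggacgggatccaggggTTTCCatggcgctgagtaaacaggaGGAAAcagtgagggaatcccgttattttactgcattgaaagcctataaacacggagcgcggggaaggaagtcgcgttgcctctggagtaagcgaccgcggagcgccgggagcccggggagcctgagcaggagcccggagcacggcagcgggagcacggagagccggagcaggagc

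The EGR site, searched as GCGGGGGCG and GCGTGGGCG, was found once before *Nr4a1* and in 3.06% of all windows. The NR4A site AAAGGTCA (1.34% of all windows) and the AP-1 site TGAGTCA (4.46%) were in 0 of the 13 windows. These matches describe the letters of the reference and say nothing about binding in these cells.

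The values are normalized counts, that is read counts divided by 1 factor per library. Reads per library were between 12067780 and 17802628, so that 3 reads, below which a gene was not told apart from 0, came to between 2.21 and 3.42 normalized counts. The floor accounts for counting error alone, since several reads may stem from 1 amplified molecule. The marker of the sort, *Ccr8*, lay between 6970 and 42508 normalized counts in CCR8+ and between 1293 and 6214 in CCR8- cells. Of the T cell genes, *Cd3e* was between 4199 and 8124 and *Cd4* between 6365 and 9823 over all 8. Markers of other lymphocytes were also read: 4 B cell markers, 2 of them at 0 in all 8 libraries, summed to between 29.4 and 365 in CCR8- and between 0 and 447 in CCR8+ libraries, and 5 CD8 T and NK cell markers to between 1034 and 5166 and between 497 and 1506. All 4 tested CD8 T and NK cell markers had a log2 difference below 0 (median -1.03), as had the 2 tested B cell markers. The 4 Treg cell markers in the table summed to between 1987 and 2965 in CCR8- and between 1614 and 2718 in CCR8+ libraries. Of these 4, 2 had a log2 difference above and 2 below 0, from -2.48 to 3.92 with a median of 1.41. Similar sums thus hide large differences of opposite sign between single Treg cell markers. The part of all these markers in the members' values was not tested. CCR8- replicate 1 stands apart, with the fewest genes detected (8569, against up to 10882) and 242 genes at 0 that reached 100 in every other library. The summed level of 12 macrophage and monocyte markers ranged from 36.4 to 87918 in CCR8- libraries and from 3744 to 30084 in CCR8+ libraries, and that of 6 melanoma markers from 105 to 17324 and from 232 to 21762. Log2 differences were above 0 for 11 of the 12 macrophage and monocyte markers (median 2.11) and below 0 for all 6 melanoma markers (median -1.14). The part of these markers in the members' values was not tested either. In bulk RNA, fewer cells expressing a gene and less of its RNA per cell cannot be told apart. By the methods, tumors were digested with collagenase and DNase before the sort. The part of this handling in the values of the members and of other early response genes was not tested.

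*Nr4a1* was by far the most abundant member. To compare levels between genes, the normalized count was divided by the exonic length of the gene in GENCODE, and on this scale *Nr4a1* had a median of 2066 normalized counts per kilobase over the 8 libraries, with a range from 1621 to 4005. *Egr1* followed with a median of 814 per kilobase, and the lowest *Nr4a1* library was above the highest *Egr1* library. *Nr4a2* (median 325), *Nfatc1* (289) and *Nr4a3* (120.2) formed the middle of the order.

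*Nr4a2* and *Nfatc1* were not separated, since *Nr4a2* was the higher of the pair in 4 of 8 libraries. *Nfatc3* (71.5), *Egr2* (64.9) and *Nfatc2* (35.6) came next, and *Nfatc3* exceeded *Egr2* in 3 of 8 libraries. *Nfat5*, at a median of 8.24 per kilobase, was below *Nfatc2* in all 8 libraries with no overlap of their ranges, and *Egr3* was lowest at 2.31 with 2 libraries at 0. Among the 11032 genes tested, the mean normalized count put *Nr4a1* at percentile 97.7, *Egr1* at 93.7 and *Nfatc1* at 89.3, whereas *Nfat5* was at 28.7 and *Egr3* at 4.38.

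**Figure D1:**
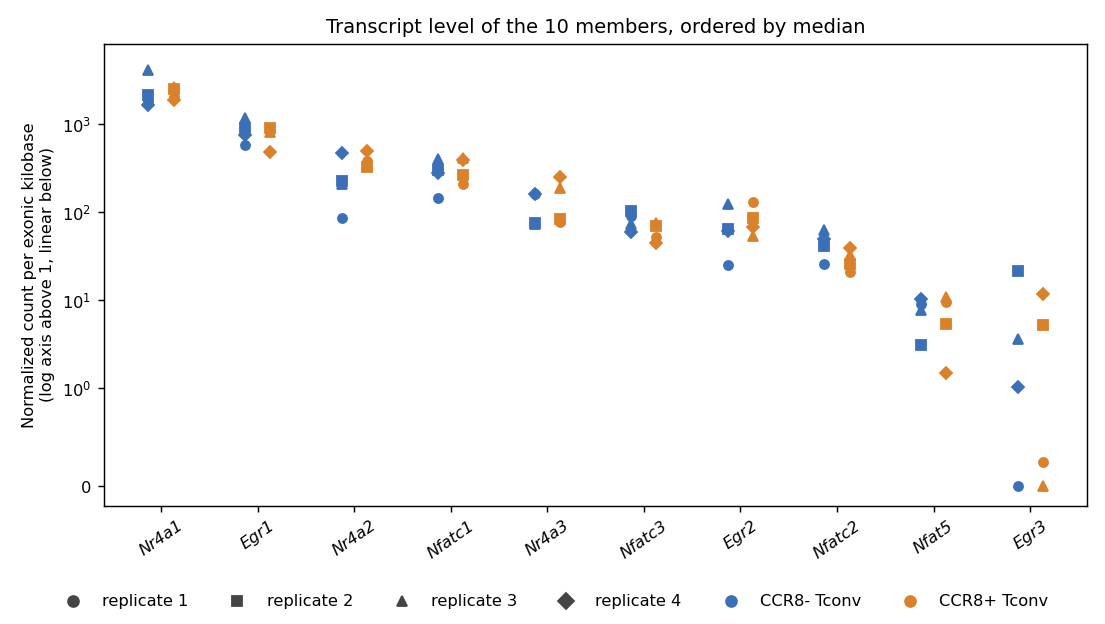
Normalized counts per exonic kilobase (vertical axis, logarithmic above 1 and linear below) of the 10 members in each of the 4 CCR8- (blue) and 4 CCR8+ (orange) libraries, with a symbol for each replicate number and genes ordered by their median. *Nr4a1* lies above all other members in both groups, *Nfat5* and *Egr3* lie at the bottom, and the colors intermingle for most genes.

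No member of the 3 families separated CCR8+ from CCR8- Tconv cells. The test was limma on log2(normalized count + 1), adjusted by Benjamini-Hochberg over 11032 genes whose mean normalized count reached 10, all 10 members included. By it 0 of 10 members had an adjusted p under 0.05, as did 0% of all tested genes. The sort marker *Ccr8*, whose groups did not overlap, was thus not called either, so the lack of a call does not show equal levels. At an unadjusted p under 0.05 limma called 0 members and 5.09% of all genes, and edgeR and DESeq2 on the recovered reads each called 0 members after adjustment, DESeq2 giving no adjusted p for 6 of them. In 0 of the 10 members did all libraries of one group lie above all of the other, which held for 4.4% of the tested genes. With 4 libraries against 4, the smallest p of the exact two-sided permutation test over the 70 label assignments is 0.0286.

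Of the 10 log2 differences (CCR8+ minus CCR8-), 4 were above 0 (52.4% of all tested genes were) and 6 below, with a median of -0.08 against 0.04 over all tested genes. They ranged from -0.57 for *Nfatc2* to 0.86 for *Nr4a2*, and the adjusted p values from 0.838 to 0.997. Within same-numbered pairs, 2 members kept 1 direction in all 4 pairs, *Nr4a2* being higher and *Nfatc2* lower in CCR8+ cells, and 16.5% of all tested genes kept 1 direction likewise (8.44% higher and 8.1% lower). The standard errors of the members were between 0.27 and 0.91, apart from 1.97 for *Egr3*, with a median of 0.63 over all tested genes.

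**Figure D2:**
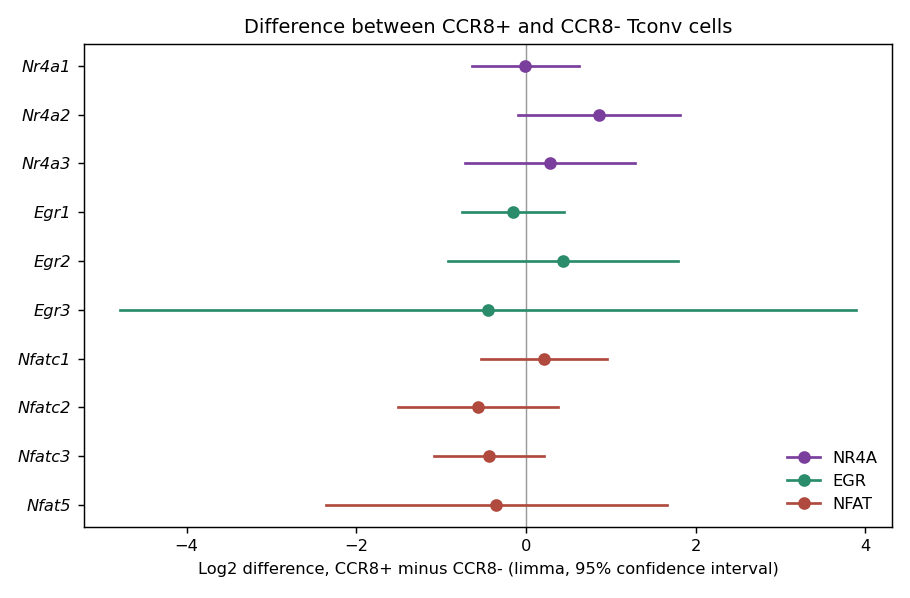
Log2 difference of each member between CCR8+ and CCR8- cells (horizontal axis, limma on log2 of normalized count plus 1), with points for the estimate, lines for its 95% confidence interval and colors for the family. All 10 intervals include 0, the *Nr4a2* interval (-0.10 to 1.81) only just, and the *Egr3* interval is the widest.

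*Nr4a1* (chromosome 15, 101254269 to 101274795, GRCm38), which encodes NUR77, was read at nearly the same level in both groups. CCR8- replicates 1 to 4 had 6334, 7446, 14055 and 5686.5 normalized counts and CCR8+ replicates 1 to 4 had 7053, 8757, 9166 and 6512. The CCR8+ values all fell inside the CCR8- range, whose top came from replicate 3. The CCR8+ mean was 7872 ± 1288 (SD, n = 4) and the CCR8- mean 8380 ± 3852 (SD, n = 4), a log2 difference of -0.01 (standard error 0.29, 95% interval -0.64 to 0.62, limma adjusted p = 0.997). The interval corresponds to a ratio between 0.641 and 1.54, so a larger difference in either direction lies outside it. *Nr4a1* was higher in CCR8+ cells in 3 of 4 pairs, with ratios of 1.11, 1.18, 0.652 and 1.15. Without CCR8- replicate 3 the log2 difference became 0.27, without CCR8+ replicate 1 it was 0.040 and without CCR8+ replicate 4 it was 0.078.

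*Nr4a2* (chromosome 2, 57106830 to 57124003), which encodes NURR1, showed the largest difference of the 10. Its normalized counts were 342, 907, 835 and 1884 in CCR8- replicates 1 to 4 and 1542, 1300, 1340 and 1973 in CCR8+ replicates 1 to 4. Only CCR8- replicate 4 reached the CCR8+ range, and CCR8- replicate 1 was the lowest of all. The means were 1539 ± 308 (SD, n = 4, CCR8+) and 992 ± 646 (SD, n = 4, CCR8-), a log2 difference of 0.86 (standard error 0.43, limma adjusted p = 0.838), and the exact permutation test gave p = 0.114. The CCR8+ library was higher in 4 of 4 pairs, by ratios of 4.51, 1.43, 1.60 and 1.05, so that the size of the difference ranged widely over the pairs. Without CCR8- replicate 1 the log2 difference was 0.43, and without CCR8- replicate 4 it was 1.25. The macrophage marker sum was 36.4, 4783, 1553 and 87918 in CCR8- replicates 1 to 4 and 30084, 19901, 3744 and 26966 in CCR8+ replicates 1 to 4. The marker sum and *Nr4a2* put the libraries in the same order within the CCR8- group, though not within the CCR8+ group. All 12 of these markers are in the table, and 11 of them had a log2 difference above 0. *Csf1r* was at 0 in CCR8- replicate 1 and *Fcgr3* in CCR8- replicate 3. The part of these markers in the *Nr4a2* values was not tested.

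*Nr4a3* (chromosome 4, 48045153 to 48086447), which encodes NOR1, varied within both groups. CCR8- replicates had 942, 450, 438 and 948 normalized counts and CCR8+ replicates 464, 498, 1119 and 1495. The high libraries were replicates 1 and 4 in CCR8- and replicates 3 and 4 in CCR8+ cells, and the groups overlapped. The means were 894 ± 501 (SD, n = 4, CCR8+) and 694 ± 289 (SD, n = 4, CCR8-), with a log2 difference of 0.28 (standard error 0.46, limma adjusted p = 0.904; exact permutation test, p = 0.514). The ratios in the pairs were 0.492, 1.11, 2.56 and 1.58, and without CCR8+ replicate 4 the log2 difference was -0.024.

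**Figure D3:**
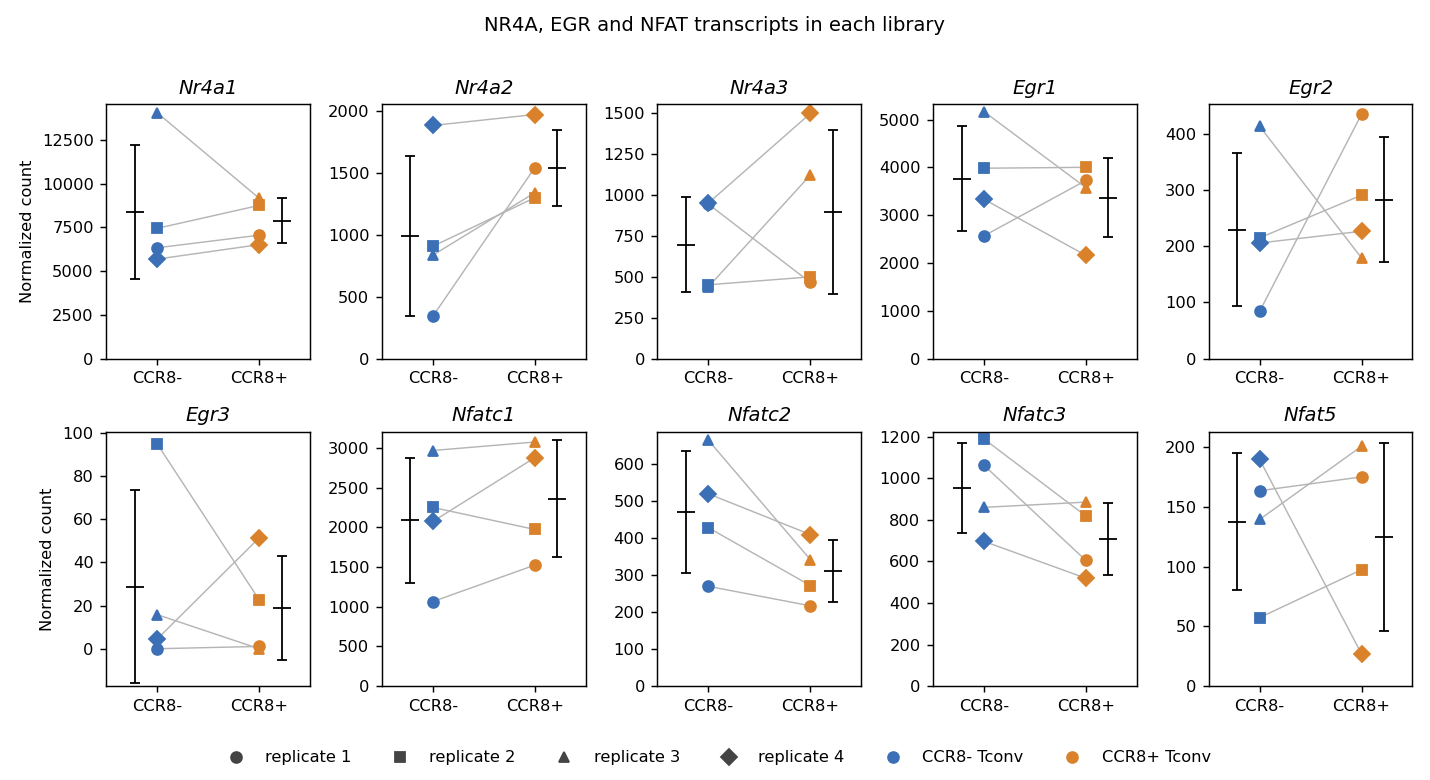
Normalized counts (vertical axis, linear, a separate scale for each gene) of the 10 members in CCR8- (blue) and CCR8+ (orange) libraries, with a symbol for each replicate number, grey lines joining equal numbers, and black marks for the mean and SD of the 4 libraries. The groups overlap in every panel, all lines rise for *Nr4a2* and all fall for *Nfatc2*. Lines cross in every panel apart from that of *Nr4a1*.

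*Egr1* (chromosome 18, 34859823 to 34864984), the most abundant EGR transcript, had overlapping groups. It had 2567, 3981, 5165 and 3331 normalized counts in CCR8- replicates and 3724, 3999, 3574 and 2157 in CCR8+ replicates. The highest and the lowest library belonged to different groups, CCR8- replicate 3 and CCR8+ replicate 4. The log2 difference was -0.15 (standard error 0.27, 95% interval -0.75 to 0.45, limma adjusted p = 0.915), with a CCR8+ mean of 3364 ± 824 (SD, n = 4) and a CCR8- mean of 3761 ± 1100 (SD, n = 4), and 2 pairs went each way. It was 0.015 without CCR8- replicate 3 and 0.047 without CCR8+ replicate 4.

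*Egr2* (chromosome 10, 67535475 to 67542188) had a spread between libraries that exceeded the difference between groups. CCR8- replicates had 83.7, 215, 413 and 206 normalized counts and CCR8+ replicates 434, 291, 179 and 226. The extremes came from replicate 1, lowest in CCR8- and highest in CCR8+ cells, and the order was turned round in replicate 3. The CCR8+ mean was 283 ± 111 (SD, n = 4) and the CCR8- mean 229 ± 136 (SD, n = 4). The log2 difference was 0.43 (standard error 0.62, limma adjusted p = 0.893; exact permutation test, p = 0.486), and without CCR8- replicate 1 it was 0.023.

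*Egr3* (chromosome 14, 70077203 to 70082614) was the only member near the detection floor. Its normalized counts were 0, 94.8, 15.8 and 4.54 in CCR8- replicates and 1.08, 22.7, 0 and 51.4 in CCR8+ replicates, from 151 and 87 reads in all. Only 4 of the 8 libraries were above 10 normalized counts, 2 in each group. The log2 difference of -0.45 had a standard error of 1.97 and a 95% interval from -4.78 to 3.88, so that neither direction was resolved. It turned to 0.65 without CCR8- replicate 2, to 0.14 without CCR8+ replicate 1 and to 0.50 without CCR8+ replicate 3.

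*Nab2*, a co-repressor that binds EGR proteins and is itself an EGR target, was separated between the groups where the EGR genes were not. It had 274, 686, 825 and 660 normalized counts in CCR8- replicates and 1241, 1240, 960 and 982 in CCR8+ replicates, so that every CCR8+ library was above every CCR8- library. The log2 difference was 0.96 (standard error 0.36, limma adjusted p = 0.838). It was named because of this lack of overlap, and 2.37% of all tested genes were likewise higher without overlap. The related *Nab1* overlapped, with a log2 difference of 0.19 (standard error 0.25). These 2 genes belong to a list of 5 relatives and co-repressors of the families, 4 of which were tested with a median log2 difference of 0.21 and none called.

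*Nfatc1* (chromosome 18, 80606205 to 80713071), which encodes the inducible NFAT2, was the most abundant NFAT transcript. It had 1065, 2251, 2967 and 2074 normalized counts in CCR8- replicates and 1524, 1973, 3075 and 2877 in CCR8+ replicates. In both groups replicate 1 was lowest and replicate 3 highest. The means were 2362 ± 736 (SD, n = 4, CCR8+) and 2089 ± 785 (SD, n = 4, CCR8-), with a log2 difference of 0.21 (standard error 0.34, limma adjusted p = 0.904; exact permutation test, p = 0.686), which became -0.081 without CCR8- replicate 1.

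*Nfatc2* (chromosome 2, 168476410 to 168601657), which encodes NFAT1, the form that resting T cells hold ready, was lower in the CCR8+ library of all 4 pairs. CCR8- replicates had 270, 429, 665 and 520 normalized counts and CCR8+ replicates 217, 272, 342 and 410. The groups overlapped only because CCR8- replicate 1 lay below CCR8+ replicates 2, 3 and 4. The means were 310 ± 83.8 (SD, n = 4, CCR8+) and 471 ± 166 (SD, n = 4, CCR8-), the log2 difference -0.57 (standard error 0.43, 95% interval -1.51 to 0.38, limma adjusted p = 0.838; exact permutation test, p = 0.143). The ratios in the pairs were 0.805, 0.635, 0.515 and 0.788.

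*Nfatc3* (chromosome 8, 106058840 to 106130537), which encodes NFAT4, went the same way in 3 of 4 pairs. CCR8- replicates had 1062, 1189, 860 and 696 normalized counts and CCR8+ replicates 604, 818, 885 and 519. The CCR8+ mean was 706 ± 173 (SD, n = 4) and the CCR8- mean 952 ± 218 (SD, n = 4). The log2 difference was -0.43 (standard error 0.30, limma adjusted p = 0.838; exact permutation test, p = 0.143), and *Esrp2* on the other strand overlaps 219 of the 11726 bases of its exons, whose reads could be told apart only if the counting used strand. *Nfat5* (chromosome 8, 107293470 to 107379517), the osmotic stress factor, had 164, 57.3, 139 and 190 normalized counts in CCR8- and 175, 97.4, 201 and 27.0 in CCR8+ replicates. The CCR8+ library was higher in 3 pairs and far lower in replicate 4, at a ratio of 0.142. The log2 difference was -0.35 (standard error 0.91, limma adjusted p = 0.953), and 0.26 without CCR8+ replicate 4.

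The ratio of *Nfatc1* to *Nfatc2* was separated between the groups, whereas neither transcript was. Computed from the normalized counts within a library, so that the library's scaling factor cancels, it was 3.95, 5.25, 4.46 and 3.99 in CCR8- replicates and 7.01, 7.25, 8.99 and 7.02 in CCR8+ replicates. Every CCR8+ library was thus above every CCR8- library, and the CCR8+ ratio was higher in 4 of 4 pairs. The mean log2 ratio of the CCR8+ libraries was 2.91 ± 0.17 (SD, n = 4) and that of the CCR8- libraries 2.13 ± 0.19 (SD, n = 4), a difference of 0.78. When each of the 8 libraries was left out in turn it was between 0.69 and 0.87. This ratio was singled out after its values were seen, from 12 ratios within the families, of which it was the only 1 without overlap, and 4.07% of all 60846996 pairs of tested genes have a ratio without overlap. It is given as a description with no test.

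Among the other NFAT ratios, *Nfatc1* to *Nfatc3* was also higher in the CCR8+ library of 4 of 4 pairs, between 2.41 and 5.55 in CCR8+ and between 1.0 and 3.45 in CCR8- cells, with overlap. *Nfatc2* to *Nfatc3* overlapped widely, from 0.333 to 0.790 and from 0.254 to 0.773. Of the 3 NR4A ratios, *Nr4a1* to *Nr4a2* fell between 3.30 and 6.84 in CCR8+ libraries and between 3.02 and 18.5 in CCR8- libraries. It was lower in CCR8+ cells in 3 of 4 pairs. *Egr1* to *Egr2* was between 8.57 and 19.96 in CCR8+ and between 12.5 and 30.7 in CCR8- libraries, again lower in 3 of 4 pairs.

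**Figure D4:**
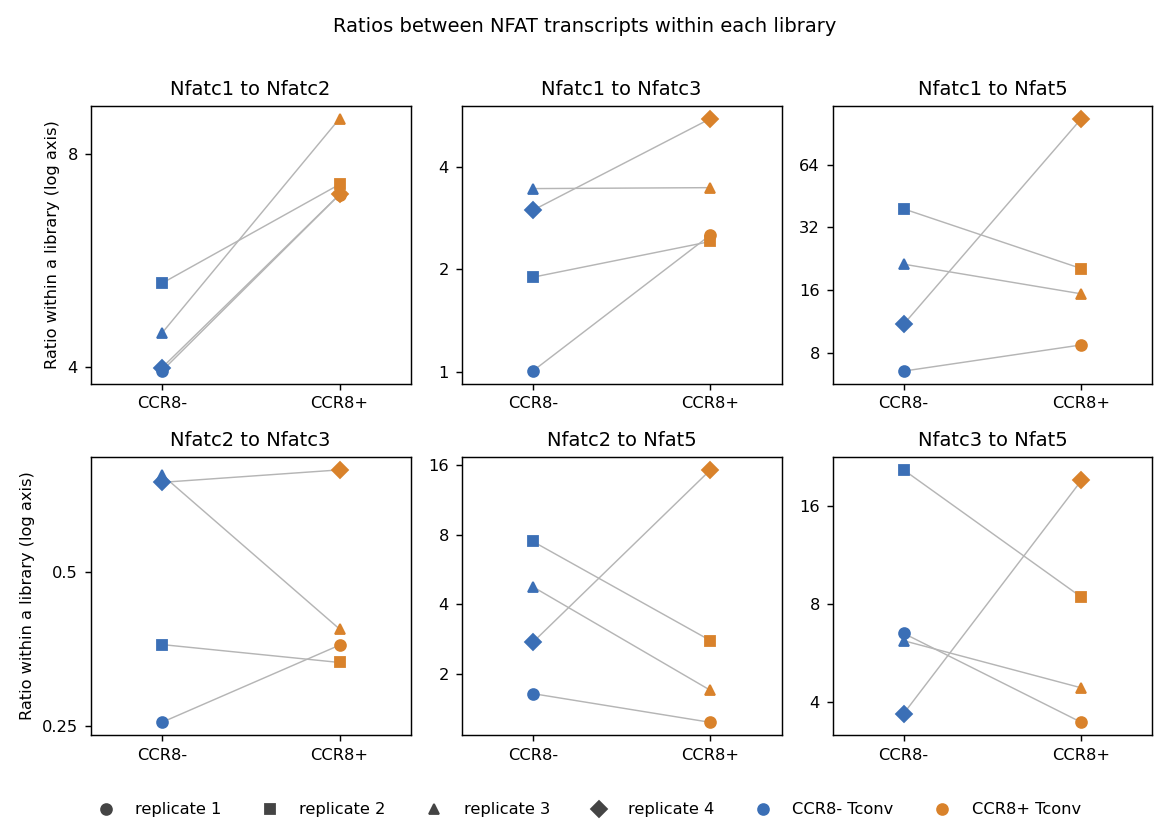
Ratios of normalized counts between NFAT transcripts within each library (vertical axis, logarithmic, a separate scale for each panel) in CCR8- (blue) and CCR8+ (orange) cells, with a symbol for each replicate number and grey lines joining equal numbers. The groups do not overlap in the *Nfatc1* to *Nfatc2* panel (3.95 to 5.25 against 7.01 to 8.99) and overlap in the other 5 panels.

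The genes that carry calcium signals to NFAT had small differences on both sides of 0 for the most part. Of 16 genes for calcium entry and calcineurin, 7 had a log2 difference above and 9 below 0, with a median of -0.04, and 0 passed limma's test with or without adjustment. *Orai1*, the pore of the calcium channel opened by store depletion, had 1950, 3193, 3073 and 3366 normalized counts in CCR8- and 2825, 4133, 4181 and 5143 in CCR8+ replicates. It was higher in 4 of 4 pairs with overlapping groups, at a log2 difference of 0.49 (standard error 0.25, limma adjusted p = 0.838). *Stim2*, a sensor of calcium in the endoplasmic reticulum, had the lowest log2 difference of the list at -1.56 (standard error 0.98), with 10.8 normalized counts in CCR8+ replicate 1 against 257 to 308 in the other CCR8+ and 295 to 446 in the CCR8- libraries.

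Of 14 inhibitors of calcineurin and kinases that return NFAT to the cytoplasm, 9 were tested, with a median of -0.15 and none called. *Cabin1*, an inhibitor of calcineurin, had 458, 501, 592 and 507 normalized counts in CCR8- and 455, 311, 454 and 444 in CCR8+ replicates, so that the groups were separated only by the gap from 455 to 458. Its log2 difference was -0.32 (standard error 0.33, limma adjusted p = 0.852), and 2.03% of all tested genes were lower without overlap. The kinase genes *Gsk3b* (0.50, standard error 0.64) and *Dyrk1a* (-0.64, standard error 0.50) marked the top and the bottom of this list among genes whose mean normalized count was 100 or more.

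Genes that have been reported as targets of these factors in T cells had differences of both signs. Of 20 such genes 7 had a log2 difference above and 13 below 0, with a median of -0.23. At an unadjusted p under 0.05 limma placed 4 of them higher and 2 lower in CCR8+ cells, where 2.8% and 2.29% of all tested genes were so placed, and 0 passed after adjustment. Without overlap between the groups, 2 of the 20 were higher and 1 lower, against 2.37% and 2.03% of all tested genes. *Tnfrsf9*, *Pdcd1* and *Ikzf1* were named because of this lack of overlap. *Tnfrsf9*, which encodes the costimulatory receptor 4-1BB, had 3248, 4823, 2358 and 4987 normalized counts in CCR8- and 7710, 10436, 16052 and 10938.5 in CCR8+ replicates. The groups were far apart, at a log2 difference of 1.57 (standard error 0.30, limma adjusted p = 0.788), and DESeq2 on the recovered reads called it with an adjusted p of 0.000726, as it did 1.15% of the genes to which it gave one.

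*Pdcd1*, which encodes PD-1, had 4115, 6784, 7246 and 10260 normalized counts in CCR8- and 12496, 10938.5, 14877 and 17499 in CCR8+ replicates. It too was separated, at 1.02 (standard error 0.29, limma adjusted p = 0.83; DESeq2 adjusted p = 0.0565). *Ikzf1*, which encodes the zinc-finger factor Ikaros, was separated in the other direction, with 3238, 944, 1393 and 1208 against 460, 620, 915 and 920.1 normalized counts and a log2 difference of -1.10 (standard error 0.40, limma adjusted p = 0.838). *Tox2*, a high mobility group factor, had the largest log2 difference of the list at 3.84 (standard error 1.65, limma adjusted p = 0.838). It was at 0 in CCR8- replicate 1, at 147, 655 and 149 in the other CCR8- and at 645, 411, 3437 and 664 in the CCR8+ replicates, with overlapping groups.

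The early response genes outside the 3 families also had differences of both signs. Of 37 listed genes 36 were tested, 18 with a log2 difference above and 18 below 0, with a median of 0.01. At an unadjusted p under 0.05 limma placed 4 of the 36 higher and 4 lower in CCR8+ cells, and 0 passed after adjustment. Of all tested genes, 2.8% were placed higher and 2.29% lower at that limit. The groups of 3 genes did not overlap, all 3 being lower in CCR8+ cells, where 2.03% of all tested genes were lower and 2.37% higher in this way. *Cd69*, an early activation antigen that also holds T cells in tissue, had 11418, 11252, 10523.5 and 10540.5 normalized counts in CCR8- and 9126, 7770, 5256 and 5728 in CCR8+ replicates, a log2 difference of -0.68 (standard error 0.22, limma adjusted p = 0.838). *Ier2*, a nuclear immediate-early protein, had between 10007 and 11392 in CCR8- and between 5552 and 7820 in CCR8+ libraries, at -0.70 (standard error 0.20, limma adjusted p = 0.83; DESeq2 adjusted p = 0.0309). *Dusp1*, a phosphatase that switches off MAP kinases, had between 24654 and 52454 in CCR8- and between 15712.5 and 23307 in CCR8+ libraries, at -0.79 (standard error 0.29, limma adjusted p = 0.838).

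*Ier3*, an early gene with a role in survival, had the largest log2 difference of the early list at 3.19 (standard error 1.18, limma adjusted p = 0.838), from 24.6, 738, 1238 and 2141 to 6446, 2173, 13775 and 1823 normalized counts. CCR8+ replicate 4 lay below CCR8- replicate 4, so that the groups overlapped. *Tagap*, a GTPase-activating protein of activated T cells, had the lowest at -0.97 (standard error 0.39, limma adjusted p = 0.838). The 10 heat shock genes, which respond to handling as well as to biology, had 5 log2 differences above and 5 below 0, a median of -0.07 and none called. Among them *Hspa1a* was lowest at -0.64 (standard error 0.42) and *Hspd1* highest at 0.36 (standard error 0.33).

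**Figure D5:**
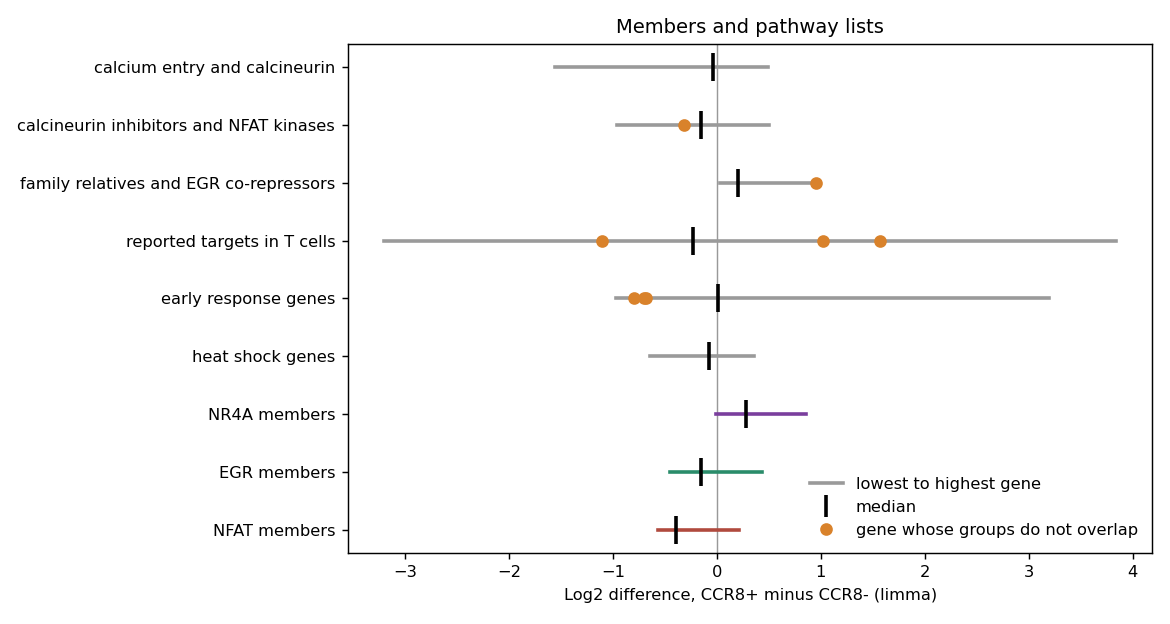
Log2 differences between CCR8+ and CCR8- cells (horizontal axis, limma) in 6 pathway lists and the 3 families, with lines from the lowest to the highest gene, black ticks at the median and orange points for genes of the lists whose groups do not overlap. The medians lie between -0.39 for the NFAT members and 0.28 for the NR4A members, and the orange points fall on both sides of 0.

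How far the members varied between libraries differed by gene. The root mean square deviation of the log2 value from the gene's own mean over the 8 libraries was 0.37 for *Egr1* and for *Nfatc3* and 0.39 for *Nr4a1*. In the same order they stand at percentiles 19.8, 20.7 and 22.5 of all genes with a mean normalized count of 100 or more. *Nr4a3* (0.66, percentile 55.7), *Egr2* (0.70, percentile 58.7), *Nr4a2* (0.77, percentile 63.4) and *Nfat5* (0.94, percentile 70.5) varied more than most genes. *Egr3*, whose mean was below 100, was not placed.

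For 1 gene of each family, the genes most like it in pattern over the 8 libraries were sought among the 8407 genes whose mean normalized count was 100 or more, by the root mean square difference of centered log2 values. Nearest to *Nr4a1* were *Ctbp1* (0.09), *Ppp6r2* (0.11) and *Cdca7l* (0.15), and the nearest other member was *Egr1*, at rank 83 (0.27). *Egr2* was most like *Glg1* (0.16), *Ccng1* (0.18) and *Lasp1* (0.21), with *Egr1* at rank 653 as the nearest member. *Nfatc1* was most like *Dcaf7* (0.13), *Lzic* (0.18) and *Slamf1* (0.20), with *Nfatc2* at rank 454 (0.42). In none of the 3 cases was the closest gene another member.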

How the data were processed

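The RNA of sorted T cells was sequenced in 8 libraries. By the methods and labels, the authors used Cutadapt for trimming and hisat2 for alignment to NCBIM37, with only uniquely mapped reads kept, and listed HTSeq and DESeq2 among their tools. Neither versions nor strand are given in the sources used here. The authors deposited a normalized signal for each gene, named FPM, which holds read counts divided by 1 factor per library, since 100% of values were whole multiples of that of 1 read (tolerance 0.02 reads). Recovered reads are given as a range in the report. Of the 11233 rows 20 were at 0 in all libraries. No columns of per-sample values were left unused (0).

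The deposited values were tested as log2(normalized count + 1) with limma 3.58.1 (R 4.3.3, intensity trend, moderated by all 11032 genes with a mean of at least 10, Benjamini-Hochberg over all of them). Single genes had exact two-sided permutation tests. Alternatives were edgeR 4.0.16 (quasi-likelihood) and DESeq2 1.42.0 (Wald) on recovered reads, other scalings, pseudocounts of 0.1 and 10, a mean of at least 100 or any mean, no trend, the replicate block, and each library left out. The scripts were checked on simulated data. Positions are from GENCODE M21 (GRCm38), a later build than the alignment, and only locate the genes.

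The members and gene lists were chosen with earlier results of these data known. Named genes were all members and, from each list, genes with adjusted p under 0.05, the highest and lowest log2 difference among means of at least 100, and any gene without overlap. Some listed genes were not analysed here. The *Nfatc1* to *Nfatc2* ratio was added after seeing the data.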

Additional observations from a re-analysis of the deposited data

Results flagged for a closer look

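Within each group of 4 libraries, the highest or lowest library was set against the others by the ratio of its gap to the whole range, on normalized counts and on their log2 values. Of 56 groups (28 genes named in the text, in 2 populations) 8 had a library past Dixon's 95% critical value on at least 1 scale. About 1 in 20 groups would pass by chance on 1 scale. *Egr3* had 94.8 normalized counts in CCR8- replicate 2 against 0 to 15.8 in the other CCR8- libraries. *Stim2* had 10.8 in CCR8+ replicate 1 against 257 to 308, and *Cabin1* had 311 in CCR8+ replicate 2 against 444 to 455. *Orai1* had 1950 in CCR8- replicate 1 against 3073 to 3366. *Gsk3b* had 78.8 in CCR8- replicate 1 against 527 to 599, and 291 in CCR8+ replicate 1 against 565 to 633. *Tox2* had 3437 in CCR8+ replicate 3 against 411 to 664, and *Hspa1a* had 18864 in CCR8- replicate 3 against 4717 to 6563. CCR8- replicate 1, CCR8+ replicate 1 and CCR8+ replicate 3 had 242, 44 and 36 genes at 0 that reached 100 in all others, and each other library had 0.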

How the results depend on the processing

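The number of genes called over all 11032 was 0 with limma, with edgeR and under every other scaling, pseudocount and limit on the mean. It became 2 in limma without a trend, 26 in DESeq2 and, with the replicate block, 1 in limma and 124 in DESeq2, none of them a member; leaving out each library kept it at 0. Genes at an unadjusted p under 0.05 numbered 562, 995 in DESeq2 with the replicate block, and between 379 and 702 with a library left out. Genes without overlap numbered 485, and between 698 and 967 with a library left out, since fewer libraries separate more easily. None of the 119 values of the members under the alternatives that keep all libraries changed direction or passed the threshold. With a library left out, 11 of 80 turned: *Nr4a1* ranged from -0.16 to 0.27, *Nr4a3* from -0.024 to 0.54, *Egr1* from -0.32 to 0.047, *Egr3* from -1.54 to 0.65, *Nfatc1* from -0.081 to 0.41 and *Nfat5* from -0.72 to 0.26. *Nr4a2* (0.43 to 1.25), *Egr2* (0.023 to 0.79), *Nfatc2* (-0.81 to -0.38) and *Nfatc3* (-0.57 to -0.30) kept their direction. The replicate numbers share no stated source. Deviations of same-numbered libraries correlated by 0.0682, 0.138, 0.108 and 0.217, with a mean of 0.133 against -0.038 for different numbers. Each CCR8+ library correlated most with the CCR8- library of its own number. Not every same-numbered pair passed 0.1, and the main fit did not take the pairing as given, though these values do not exclude it. With the replicate block, *Nr4a2* had an adjusted p of 0.758 in limma and 0.553 in DESeq2, and DESeq2 also called *Pdcd1* (adjusted p = 0.00123) and *Cd69* (adjusted p = 0.0471). The *Nfatc1* to *Nfatc2* difference was between 0.76 and 0.78 with other pseudocounts, chosen after seeing the data, and rescaling cancels in it. In *Egr3*, libraries held between 0 and 129 reads, and in *Nfat5* between 31 and 176.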
